A study of Homo sapiens with 6 samples.

Results

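H3K27ac, the acetylated form of lysine 27 on histone H3, was mapped by CUT&Tag, in which a transposase bound to an antibody cuts out the DNA beside its target, in MDA-MB-231 cells, a human triple-negative breast cancer line with mesenchymal features. The regions described here are the H3K27ac regions at the ends of protein-coding genes that were called both in control cells (NC) and after knockdown of PKM2 (PKM2-KD). They were selected on the readout itself: a region of the PKM2-KD list on chromosomes 1 to 22 was kept if it was 452 to 2499 bp wide, overlapped by at least 1 bp an NC region that was no narrower than 2 minimum widths of its list (112 bp each), and lay within 1 kb of either end of a protein-coding gene. This gave 4982 regions, which are 26.2% of the 18990 shared regions of this width and 2.34% of the 212885 rows of the PKM2-KD list. The NC list had 573146 rows. The other shared regions were 7650 inside protein-coding genes and over 1 kb from every gene end (gene bodies), and 6358 outside protein-coding genes. The gene table used gives only the outermost ends of a gene, so a region at an inner start of a gene with several starts was counted among gene bodies.

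The study had 6 groups with 1 library each: NONO in NC and in NONO-KD cells, histone H3 phosphorylated at threonine 11 (H3T11ph) in NC and PKM2-KD cells, and H3K27ac in NC and PKM2-KD cells. NC is the control of the labels, and the groups share the cell line and differ in antibody and in the knockdown named. Nothing in the labels tells which of the knockdown constructs was used for these libraries. With 1 library per group no difference between NC and a knockdown had a replicate check, and no p-value was computed. Intervals below are 95% intervals over regions or genes and cover counting error only. The 2 H3K27ac lists were also not written in the same way. Region names carried a prefix in PKM2-KD only, and the NC pileup had been multiplied by 0.521, so the knockdown and the way the lists were made cannot be told apart. The lists imply nearly the same depth, 7.46 fragments per kb in NC and 7.47 in PKM2-KD.

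H3K27ac marks active promoters and enhancers. It is laid down by acetyltransferases such as EP300 on the nucleosomes that flank the open, transposase-accessible stretch just before a gene start. Many promoters of genes used in every cell lie in CpG islands, and promoters of genes used in few cell types more often lack them. H3T11ph is placed by several kinases, and nuclear PKM2, a glycolytic enzyme, has been described as one of them. NONO is an RNA- and DNA-binding protein of paraspeckles that also acts in transcription.

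The bases just before the start of 7 genes with such a region show the range of promoters. They are from RefSeq (GRCh38.p14), 250 bases each, read along the strand of the gene and ending at the base before the start. Capitals mark any match, on either strand, of the 10 motifs counted further below. KAT5 (chr11:65712002-65712251, plus strand) encodes the acetyltransferase TIP60, PSMD12 (chr17:67366578-67366827, minus strand) a proteasome subunit, RPL24 (chr3:101686719-101686968, minus strand) a ribosomal protein and KLF6 (chr10:3785210-3785459, minus strand) a zinc finger transcription factor. ZNF215 (chr11:6926176-6926425, plus strand) is a zinc finger gene with one of the strongest H3T11ph rows of NC only. H3C1 (chr6:26020201-26020450, plus strand) is a canonical histone H3 gene. OR14A2 (chr1:247748142-247748391, minus strand) is the 1 olfactory receptor gene with a region and is shown as a CpG-poor start. Its region did not cover that start, and the summits lay 905 bp (PKM2-KD) and 902 bp (NC) inside the gene.
KAT5: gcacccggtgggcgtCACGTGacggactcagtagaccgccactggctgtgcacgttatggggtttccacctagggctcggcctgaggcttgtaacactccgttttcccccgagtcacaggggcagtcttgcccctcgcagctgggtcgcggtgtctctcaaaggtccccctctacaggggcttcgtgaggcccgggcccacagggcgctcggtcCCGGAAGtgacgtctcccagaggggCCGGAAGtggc
PSMD12: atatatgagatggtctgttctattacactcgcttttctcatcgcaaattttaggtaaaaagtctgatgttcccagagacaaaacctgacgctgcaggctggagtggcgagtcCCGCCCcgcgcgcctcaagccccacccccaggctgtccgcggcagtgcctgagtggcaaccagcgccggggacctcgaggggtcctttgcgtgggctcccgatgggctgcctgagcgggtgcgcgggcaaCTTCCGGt
RPL24: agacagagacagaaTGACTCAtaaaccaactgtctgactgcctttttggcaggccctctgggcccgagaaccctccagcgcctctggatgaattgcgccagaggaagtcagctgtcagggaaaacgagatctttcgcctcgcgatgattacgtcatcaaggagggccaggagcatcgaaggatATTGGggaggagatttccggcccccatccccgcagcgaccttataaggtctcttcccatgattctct
KLF6: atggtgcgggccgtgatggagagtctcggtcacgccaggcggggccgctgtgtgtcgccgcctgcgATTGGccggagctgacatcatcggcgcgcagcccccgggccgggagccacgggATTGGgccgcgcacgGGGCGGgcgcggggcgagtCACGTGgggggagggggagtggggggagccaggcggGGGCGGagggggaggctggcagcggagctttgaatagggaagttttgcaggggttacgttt
ZNF215: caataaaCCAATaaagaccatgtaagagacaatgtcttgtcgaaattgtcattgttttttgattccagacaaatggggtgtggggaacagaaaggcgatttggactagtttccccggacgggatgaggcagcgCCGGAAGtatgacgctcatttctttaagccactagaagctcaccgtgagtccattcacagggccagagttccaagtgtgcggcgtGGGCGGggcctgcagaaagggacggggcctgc
H3C1: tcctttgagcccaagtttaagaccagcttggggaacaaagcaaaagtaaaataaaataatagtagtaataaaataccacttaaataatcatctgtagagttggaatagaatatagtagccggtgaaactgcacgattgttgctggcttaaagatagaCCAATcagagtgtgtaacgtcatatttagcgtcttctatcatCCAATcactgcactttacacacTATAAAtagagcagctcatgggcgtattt
OR14A2: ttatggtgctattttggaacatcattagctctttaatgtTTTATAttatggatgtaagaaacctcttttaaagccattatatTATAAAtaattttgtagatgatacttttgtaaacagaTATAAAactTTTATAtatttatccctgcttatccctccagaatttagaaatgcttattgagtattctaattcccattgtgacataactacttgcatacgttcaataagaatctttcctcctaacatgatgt

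The KLF6 stretch was 72.4% GC with a CpG observed over expected ratio of 0.972 (1 means as many CpG dinucleotides as its C and G content would give). The KAT5, PSMD12, RPL24 and ZNF215 stretches had ratios of 0.69, 0.822, 0.649 and 0.745. The H3C1 stretch was 36.4% GC with a ratio of 0.604 and held a TATA box and a pair of CCAAT boxes. OR14A2 stood apart with 27.6% GC and a ratio of 0.214.

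Most of the regions lay at gene starts. Of the 4982 regions, 3811 (76.5%) were within 1 kb of a start, 287 (5.76%) were near a far end only, and for 884 the strand of the gene was not given in the table used. That table has no entry for any gene of chromosome 8 (715 genes, 202 regions). Results on starts, summit positions and promoter motifs thus leave that chromosome out. Of the regions at starts, 2687 (70.5%) covered a start, and 542 (14.2%) lay at starts of genes that run in opposite directions. A single gene was near 3945 regions, 2 genes were near 972, and 3 or more were near 65. The regions had a median width of 959 bp (quartiles 692 and 1334 bp), against 810 bp in gene bodies and 798 bp outside genes. Regions near a far end only did not differ from those at starts beyond counting error in what they overlapped. H3T11ph of NC was at 17.4% of them and 19.99% of those at starts (2.57 points, -2.40 to 6.73), and NONO of NC at 25.1% and 21.7% (-3.36 points, -8.84 to 1.49).

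At the 3269 regions whose start genes run in 1 direction, the summit of the H3K27ac region lay at a median of +32 bp in PKM2-KD (quartiles -189 and +420 bp) and +28 bp in NC (quartiles -192 and +450 bp), with positive positions inside the gene. Summits downstream of the start made up 55.5% (53.8% to 57.2%) in PKM2-KD and 53.5% (51.8% to 55.2%) in NC. H3T11ph summits at the same kind of region lay upstream more often. Their median was -80 bp in NC (n = 640) and -81 bp in PKM2-KD (n = 697), and 35.9% were downstream in each, with intervals of 32.3% to 39.7% and 32.4% to 39.5%. In the regions with an H3T11ph NC row the H3K27ac summit itself was downstream in 47.5% (43.7% to 51.4%), and the H3T11ph summit lay a median of 12 bp upstream of it (quartiles of the distance -191 and +149 bp). NONO NC summits were spread more evenly, with a median of +19 bp and 51.6% downstream (48.0% to 55.2%, n = 717). NONO summits of the NONO-KD list had a median of -82 bp and 35.4% downstream (29.0% to 42.5%, n = 189), close to the H3T11ph values.

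**Figure D1:**
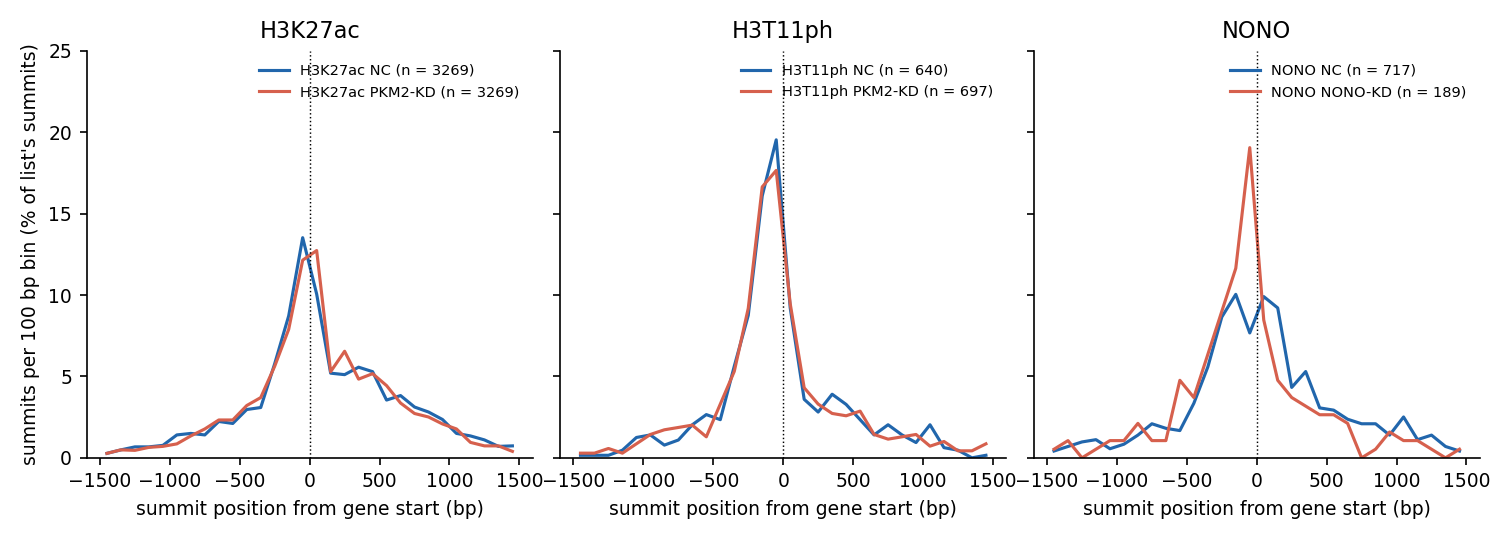
Position of the summits around the gene start, in 100 bp bins, for the 3269 shared H3K27ac regions at starts of genes that run in 1 direction. The horizontal axis is the distance from the start in bp (negative is upstream), the vertical axis the share of each list's summits in percent, and n is the number of regions with a row of that list. Both H3T11ph lines peak just before the start, with medians of -80 and -81 bp, and the H3K27ac lines have a shoulder inside the gene.

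The height of the H3K27ac summit was recovered in fragments from the deposited fold and p. Heights are given as a description, since presence in both lists was used to choose the regions. The NC height is the summit of the strongest NC row that overlapped the region, and at 332 regions (6.66%) that summit lay outside the region itself. Where it lay inside, the NC and PKM2-KD summits were a median of 112.5 bp apart, and within 200 bp in 64.0%. Paired heights can thus belong to different positions. Of those named below, this includes H3C1 and H4C1 (927 bp apart), ZNF432 (708 bp), KAT5 with RNASEH2C (682 bp), FOSL1 (606 bp) and CD44 (559 bp). The median height was 33 fragments in NC (quartiles 22 and 50, range 6 to 362) and 41 in PKM2-KD (quartiles 27 and 63, range 7 to 348). The median log2 ratio of PKM2-KD over NC was 0.34 (quartiles -0.09 and 0.76), and 69.2% of regions were higher in PKM2-KD. In gene bodies the medians were 36 and 42 fragments, the median log2 ratio was 0.18 and 59.2% were higher. Outside genes the medians were 39 and 43, the median log2 ratio was 0.20 and 60.3% were higher. The median log2 ratio at gene ends was thus 0.15 above that of gene bodies and 0.14 above that outside genes. On the within-list percentile of the deposited fold the order was the opposite, since the change from NC to PKM2-KD had a median of -1.50 percentile points at gene ends, -1.33 in gene bodies and -1.27 outside genes. The direction of this difference therefore depends on the scale. Over the gene-end regions that held the NC summit, the median log2 ratio was 0.36 and 70.9% were higher in PKM2-KD, against 0.22 and 62.2% in gene bodies and 0.23 and 62.9% outside genes.

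The summit also moved more at gene ends. The NC and PKM2-KD summits lay within 200 bp of each other in 60.8% of gene-end regions, 67.5% of those in gene bodies and 69.7% of those outside genes, and the median shift was 131, 88 and 82 bp. NC regions covered a median of 65.3% of a gene-end region, 72.0% in gene bodies and 74.4% outside genes. Gene-end regions were also wider, and the part of width in these values was not tested.

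Among the regions with the highest fold in PKM2-KD were those at KLF6, ARAP2 (a GTPase-activating protein), LAYN (a hyaluronan receptor) and PARP4. The KLF6 region (chr10:3784648-3786215) was 174 fragments high in NC and 251 in PKM2-KD. At ARAP2 the heights were 197 and 222. LAYN had 186 and 234, and PARP4 had 139 and 218. These 4 were higher in PKM2-KD, the list they were picked on, so that direction was favoured by the choice.

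Among the highest by NC fold were those at ECT2, an exchange factor of cytokinesis, at DCP2 and MCC, at ATOX1, a copper chaperone, and at TES, a focal adhesion protein. ECT2 had 362 fragments in NC and 233 in PKM2-KD. TES had 246 and 212. Both were lower in PKM2-KD, and here the choice by NC fold favoured that direction. At the far ends of DCP2 (the mRNA decapping enzyme) and MCC, and of ATOX1, the NC summit lay outside the region, 590 and 1825 bp from the PKM2-KD summit, so their heights in the lists (271 and 38, and 255 and 193) belong to different positions.

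**Figure D2:**
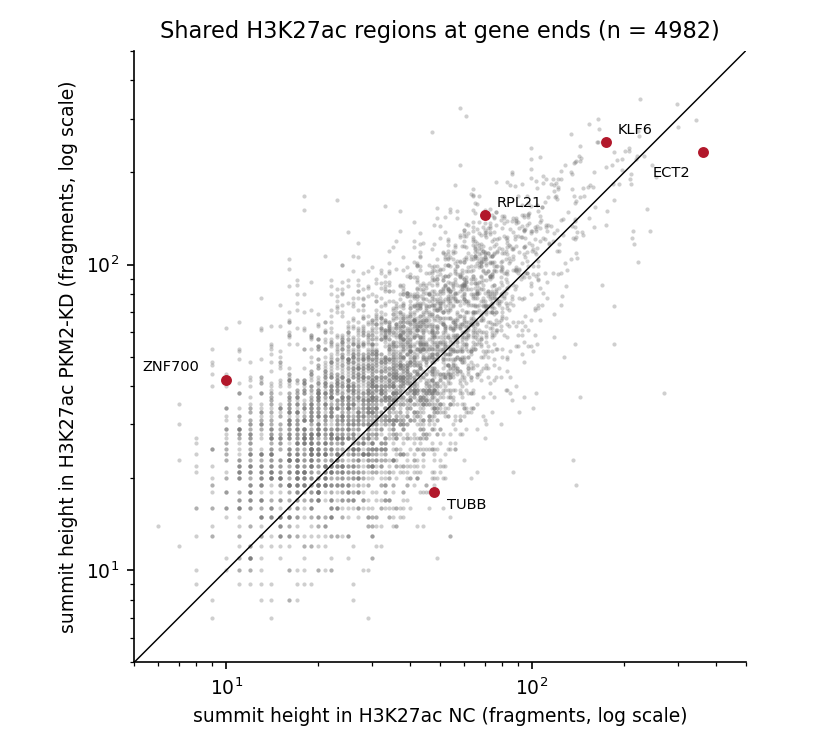
Summit height of each of the 4982 shared H3K27ac regions at gene ends in NC (horizontal axis) and PKM2-KD (vertical axis), in fragments on log scales, with the line of equal height. Most points lie above the line (69.2%), named regions are in red, and ZNF700, at 10 and 42 fragments, stands farthest above the line among them. The ZNF700 summits lay 295 bp apart. At 332 regions the NC summit lay outside the region. The rule asked for wider rows in PKM2-KD than in NC, which can favour points above the line.

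Large moves in rank came with the local background that the peak caller used. The regions that rose most in percentile of fold were at MT2A (a metallothionein), DUSP6 (a phosphatase of ERK), VSIG8, ACBD5 and SNX13. The DUSP6 region went from percentile 0.098 to 98.2, with heights of 63 fragments in NC and 99 in PKM2-KD over backgrounds of 24.96 and 1.91. The NC and PKM2-KD summits of DUSP6 lay 613 bp apart. ACBD5 went from percentile 0.11 to 95.99, with heights of 93 and 134 over backgrounds of 36.5 and 5.22. At MT2A the NC summit lay outside the region, 4178 bp from that of PKM2-KD, and the values of the lists belong to different positions. The regions that fell most were at BET1L and RIC8A, UCK2 (a uridine-cytidine kinase), GARS1 (glycyl-tRNA synthetase), HNRNPA0, and MBLAC2 and POLR3G. UCK2 went from percentile 98.95 to 0.011 with a height of 60 fragments in both lists, over backgrounds of 1.66 in NC and 40.2 in PKM2-KD. These UCK2 values belong to different positions, since the summits lay 1419 bp apart within the region. GARS1 had heights of 46 and 35 over backgrounds of 0.86 and 20.1, at summits 664 bp apart. At BET1L and RIC8A the NC summit again lay outside the region, 2647 bp from that of PKM2-KD.

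Beside the limits of the rule the values changed little. Regions 452 to 476 bp wide had a median PKM2-KD fold of 9.25 (n = 126), and those 427 to 451 bp wide, just outside, 9.22 (n = 116). At the upper limit the medians were 19.8 inside (n = 24) and 19.4 outside (n = 32). Regions 901 to 1000 bp from a gene end had 15.0 (n = 86) and those 1001 to 1100 bp away 14.2 (n = 75). Regions whose widest NC row was at most 20 bp above the limit had 9.91 (n = 143), those over a slightly narrower row, 1 to 21 bp below that limit, 8.55 (n = 181), and 709 regions with no NC row had 6.57.

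Overlap with H3T11ph and NONO was not used by the rule. Over all 28212 PKM2-KD H3K27ac regions of this width, 13.8% overlapped an H3T11ph NC row, 16% an H3T11ph PKM2-KD row, 15.7% a NONO NC row and 5.99% a NONO row of NONO-KD. At the shared gene-end regions the shares were 19.7% (981 regions, 18.6% to 20.8%), 21.6% (1077, 20.5% to 22.8%), 22.2% (1104, 21.03% to 23.33%) and 6.42% (320, 5.78% to 7.14%). Gene-end regions carried NONO of NC cells more often than either other class, by 5.78 percentage points over gene bodies (4.37 to 7.21) and 7.22 points over regions outside genes (5.77 to 8.67). Both kept their direction in each of the 4 equal bands of H3K27ac height. In windows of 200 bp at the summit, where width plays no part, they were smaller, at 1.69 points (0.57 to 2.83) and 2.94 points (1.81 to 4.09).

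H3T11ph was also more frequent at gene ends than in gene bodies. The difference was 7.27 points in NC (5.95 to 8.61) and 4.14 points in PKM2-KD (2.72 to 5.57). In the 200 bp windows it was 3.08 points in NC (2.03 to 4.15) and 0.91 points in PKM2-KD (-0.22 to 2.07), which no longer excluded 0. Against regions outside genes it was 2.58 points in NC (1.14 to 4.03) and 1.52 points in PKM2-KD (0.013 to 3.03). In the 200 bp windows these were -0.69 points in NC (-1.86 to 0.50) and -1.38 points in PKM2-KD (-2.60 to -0.14), so that direction depends on the window. Taller regions carried H3T11ph more often. The NC share at gene ends went from 10.3% in the lowest of these bands to 33.0% in the highest.

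**Figure D3:**
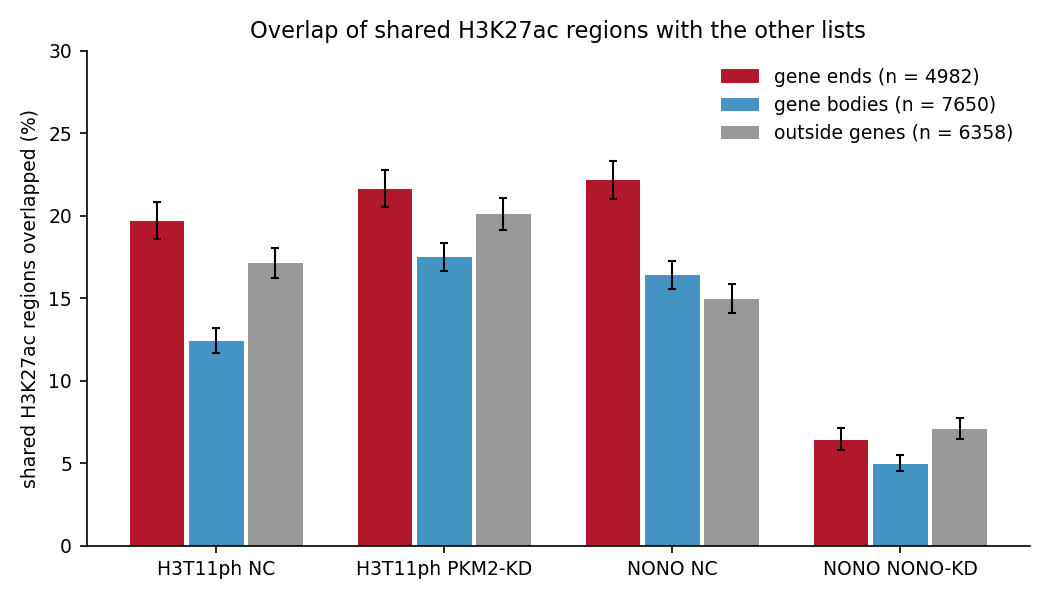
Share of shared H3K27ac regions that overlap a row of each H3T11ph or NONO list (vertical axis, percent) at gene ends, in gene bodies and outside genes. Bars are shares with 95% Wilson intervals, and the gene-end bars are highest for both H3T11ph lists and for NONO NC, at 19.7%, 21.6% and 22.2%.

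An H3T11ph row was present in NC only at 614 regions, in both at 367 and in PKM2-KD only at 710. Of the regions with an NC row, 37.4% also had one in PKM2-KD, close to the 38.3% of gene bodies and the 39.9% outside genes. Of the regions with a row in 1 list, 46.4% had it in NC (43.7% to 49.1%), against 37.6% in gene bodies (35.22% to 40.02%) and 43.7% outside genes (41.2% to 46.2%). Where both lists had a row the median fold was 16.2 in NC and 18.6 in PKM2-KD, and PKM2-KD was higher in 199 of 367. Gene-end regions with an H3T11ph row were thus more numerous in PKM2-KD (1077) than in NC (981). The same held over all 28212 PKM2-KD H3K27ac regions of this width, at 4506 (16%) and 3887 (13.8%), so this order is not particular to gene ends. All these regions were drawn from the PKM2-KD H3K27ac list.

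The strongest rows of NC only were at CCDC121 and GPN1 (fold 89.6), PRR14L (83.8), ARMH3 (83.1), ZNF215 (82.7) and AGTRAP (82.3). The H3K27ac heights at ZNF215 were 19 fragments in NC and 34 in PKM2-KD, and at PRR14L they were 47 and 35. Rows of NC only thus stood both where H3K27ac was higher and where it was lower in PKM2-KD. The strongest rows of PKM2-KD only were at CEP120, a centriole protein (140.6), ZNF700 (115.2), LARP4, an mRNA-binding protein (89.3), KLHL32 and NDUFAF4 (88.9), and ARHGAP24 (87.7). ZNF700 had H3K27ac heights of 10 and 42, at summits 295 bp apart. Ranked by the lower of both folds, rows in both lists were strongest at EIF3E, a translation initiation factor subunit (100.8 in NC and 75.7 in PKM2-KD), RPL24 (79.0 and 54.3), SLC22A15 (84.5 and 51.9), TMEM14B (52.4 and 50.7) and LOC124903573 (91.5 and 50.6).

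NONO was present at 985 gene-end regions in NC only, at 119 in both lists and at 201 in NONO-KD only. The NC-only share of regions with a row in 1 list was 83.0% (80.8% to 85.1%), against 81.8% in gene bodies (79.6% to 83.7%) and 71.95% outside genes (69.3% to 74.5%). The 2 NONO lists were also written differently, so the knockdown and the form of the lists cannot be told apart here either. Among the strongest NONO NC rows were those at TCF3, a basic helix-loop-helix factor (fold 194.3), COX5A (177.1), APOM and C6orf47 (166.6), and TUBB, a beta-tubulin (153.9). None of these 4 regions had a NONO row in NONO-KD, which was also absent from most gene-end regions with a NONO NC row (present at 10.8% of them). NONO NC and H3T11ph NC rows met at 335 gene-end regions, which is 34.1% of those with H3T11ph and 30.3% of those with NONO. The same shares were 30.3% and 22.98% in gene bodies and 25% and 28.6% outside genes.

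Genes with a shared region at an end numbered 5307 of 19126 protein-coding genes, or 27.7%. Of these, 712 had more than 1 region. Lists of genes by function were read against that share. Cytosolic ribosomal protein genes had a region at 66 of 83 (79.5%, 69.6% to 86.8%), the highest share of the lists. Over their 79 regions the median height was 34 fragments in NC and 49 in PKM2-KD. RPL21 (chr13:27250971-27252547) had 70 and 145, with an H3T11ph row in PKM2-KD only (fold 58.0). The region of RPS29 and LRR1 had 68 and 102. Proteasome genes had a region at 25 of 38 (65.8%, 49.9% to 78.8%). The region at PSMA3 had 63 and 104 fragments and that at PSMD12 103 and 108.

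Genes of replication licensing had a region at 13 of 20 (65%), with MCM7 and AP4M1 at 32 and 94 fragments, and ORC4 and MBD5 at 51 and 53. The hnRNP and SR splicing factor genes had one at 22 of 37 (59.5%, 43.5% to 73.7%). HNRNPU, with LOC124904588, had 60 and 104 fragments and SRSF6 81 and 109. H3T11ph, at 19.7% of all gene-end regions in NC and 21.6% in PKM2-KD, overlapped 15 and 10 of the 24 regions of this list, 2 and 11 of the 26 of the proteasome list and 18 and 24 of the 79 of ribosomal protein genes. It overlapped 6 and 4 of the 14 regions of replication licensing genes. These counts were not tested against those of all regions. Canonical histone genes had a region at 29 of 69 (42.0%), including H3C1 and H4C1 with 104 and 134 fragments and H4C16 with LOC105369669 at 95 and 115. These genes are clustered and share regions, and reads from near-identical copies may be split. Of their 26 regions, 13 overlapped H3T11ph in each list, against 19.7% and 21.6% of all gene-end regions.

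Among metabolic lists, glycolysis genes had a region at 9 of 18 (50%, 29.0% to 71.0%), with HK2 at 79 and 88 fragments at its far end and 38 and 30 at its start, and LDHB at 71 and 56. PKM itself, whose transcript gives PKM2, had a pair of regions at its start, 1 at 24 fragments in NC and 68 in PKM2-KD and 1 at 52 and 61. Neither overlapped a row of H3T11ph or NONO. Genes of the respiratory chain had a region at 25 of 71 (35.2%, 25.1% to 46.8%). NDUFA7 and RPS28 were at 20 and 49 and NDUFB4 at 63 and 64. Aminoacyl-tRNA synthetase genes had a region at 9 of 20 (45%, 25.8% to 65.8%). VARS1 was at 50 and 97 and FARSB at 69 and 60. Zinc finger genes of chromosome 19 had one at 78 of 240 (32.5%, 26.9% to 38.7%), with ZNF562 at 50 and 80 and ZNF432 at 67 and 100.

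Among chromatin and signalling genes, 6 of 10 histone acetyltransferase genes had a region. KAT5 had 3. The region at its start (chr11:65711927-65712446) had 31 fragments in NC and 49 in PKM2-KD, with an H3T11ph row in NC (fold 26.8) and none in PKM2-KD, and a NONO row in NC (6.71). The NC summit lay just outside this region, 187 bp from that of PKM2-KD. A region at its far end had 13 and 24, and another, shared with the start of RNASEH2C, had 9 and 19. HAT1 had 37 and 43, and KAT2A with DHX58 14 and 26. AP-1 genes had a region at 5 of 10 (50%, 23.7% to 76.3%). FOSL1 had 145 and 223 fragments and JUN 82 and 90. YAP and TEAD pathway genes had one at 9 of 16 (56.2%), with YAP1 at 43 and 127 and AMOTL1 at 91 and 96.

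Markers were set beside the labelled line. Mesenchymal genes had a region at 6 of 15 (40%, 19.8% to 64.2%), among them CD44 with 53 and 119 fragments and SPARC with 67 and 81. Luminal and epithelial genes had one at 4 of 14 (28.6%, 11.7% to 54.7%), which were KRT8 and KRT18 with 68 and 60, KRT19, and ERBB3 with 13 (a summit outside the region) and 15. A PKM2-KD region of any width lay within 1 kb of an end at 12 of the 15 mesenchymal and 10 of the 14 luminal genes, so a gene outside the rule was not thereby without acetylation. Neuronal genes had one at 3 of 13, with SYT1 at 50 and 73 and SNAP25 at 10 and 34. Liver genes had one at 1 of 15, TF, whose region (36 and 31 fragments) is shared with TOPBP1 and LOC124909487. Blood and immune genes had one at 0 of 15 (0% to 20.4%). Olfactory receptor genes had one at 1 of 391 (0.256%), OR14A2, at 64 and 92 fragments.

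**Figure D4:**
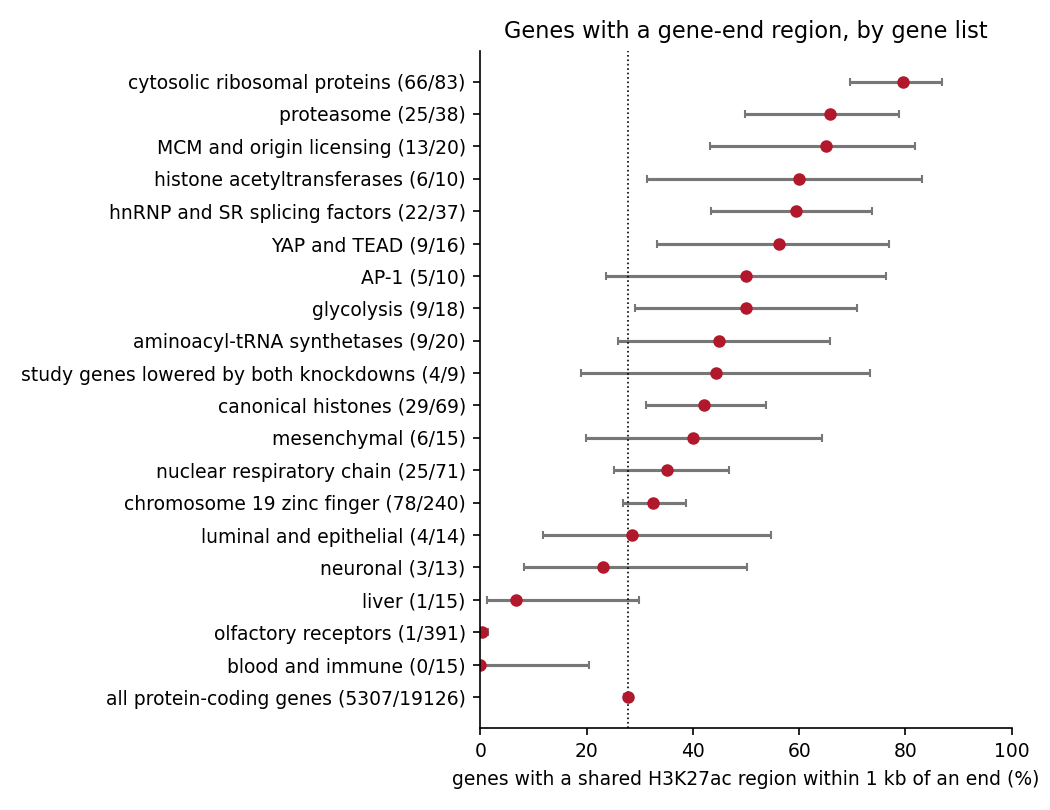
Share of the genes of each list with a shared H3K27ac region within 1 kb of an end (horizontal axis, percent), with 95% Wilson intervals and the counts beside each name. The dotted line is the share over all protein-coding genes, 27.7%, with cytosolic ribosomal protein genes highest at 79.5% and olfactory receptor and blood and immune genes lowest.

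The study lists 9 genes as lowered by both knockdowns, a list drawn from the same cells and not independent of them. Of these, 4 had a region (44.4%, 18.9% to 73.3%). RCN1, a calcium-binding protein of the endoplasmic reticulum, had 85 fragments in NC and 115 in PKM2-KD. FERMT2, a focal adhesion protein, had 35 and 50. MCAM, a cell adhesion molecule, had 46 and 53 in its first region (backgrounds 6.24 and 25.8), with an H3T11ph row in PKM2-KD (fold 16.1). Its other region had 20 and 47, with NONO (fold 50.2) and H3T11ph (fold 3.64) rows in NC. ADAMTSL4 had 32 and 22 at one region of its far end and 96 and 135 at the other. That second region had NONO rows in both NC (fold 9.87) and NONO-KD (24.8). Of the 6 regions of these genes, 5 were higher in PKM2-KD by height, against 69.2% of all gene-end regions. By percentile of fold, RCN1 fell from 99.7 in NC to 99.4 in PKM2-KD. The first regions of MCAM (78.3 to 0.31) and ADAMTSL4 (96.1 to 80.7) also fell. Their second regions (87.7 to 93.7 and 9.47 to 74.2) rose, as did FERMT2 (33.4 to 51.7). CCN2, IL11 and MATN2 had PKM2-KD regions within 1 kb of an end that did not meet the rule, and VDAC1 and CDKN1A had no H3K27ac region of either list that close to an end.

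The regions were spread over all 22 chromosomes, from 12.6 per 100 protein-coding genes on chromosome 21 to 38.8 on chromosome 10. Chromosomes 22, 19 and 16 were also low, at 15.5, 17.6 and 19.1. The median log2 ratio of height was above 0 on every chromosome, from 0.18 to 0.42, under a rule that asked for wider rows in PKM2-KD.

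The sequence before the start was compared between 4038 starts with a region and 11063 without, over the 250 bases used above. Starts with a region had a mean CpG ratio of 0.828, against 0.593 (difference 0.235, 0.226 to 0.244), and a mean GC content of 64.0%, against 59.9%. The ratio exceeded 0.6 at 87.9% of starts with a region, 72.5% of starts with another PKM2-KD region, 44.2% of those with an NC region only and 36.8% of those with none. Motifs were counted by their letters on both strands. TATAAA, the TATA box, was found at 5.57% of starts with a region and 10.7% without (-5.09 points, -5.98 to -4.16). CCGGAAG, of ETS factors, was found at 20.4% and 8.81% (11.5 points, 10.2 to 12.9). TGACGTCA, of CREB and ATF factors, was found at 4.46% and 1.60% (2.86 points, 2.21 to 3.57). GGGCGG, the GC box, was found at 68.0% and 52.0% (16.0 points, 14.3 to 17.7). The GC box is itself made of G and C, so its share moves with GC content. The starts without a region include 5030 with another PKM2-KD region. Among those, TATAAA was found at 6.6%, GGGCGG at 64.4%, CCGGAAG at 13.5% and TGACGTCA at 2.23%. The TATA and GC box shares there were thus close to those of starts with a region.

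Among starts whose CpG ratio exceeded 0.6 (3549 with a region and 6108 without, a split made after these values were seen), several differences turned. The GC box was then less frequent with a region, at 71.7% against 77.2% (-5.46 points, -7.28 to -3.65), and GC content was lower, at 65.4% against 67.7%. The TATA box no longer differed beyond counting error, at 4.68% and 4.42% (0.26 points, -0.59 to 1.15). CCGGAAG stayed more frequent, at 22.1% against 13.5%, as did TGACGTCA, at 4.99% against 2.39%, and CCAAT, at 35.3% against 32.6%. TGANTCA, of AP-1, turned from 3.81% against 5.43% over all starts to 3.02% against 2.15%. GGAATG, of TEAD factors, had 9.01% against 10.3% over all starts and 8.23% against 7.35% among the CpG-rich. CACGTG, the E-box, had 9.29% against 7.27% over all starts and 9.89% against 9.53% among the CpG-rich (0.36 points, -0.85 to 1.61). Starts with another PKM2-KD region had it at 9.2%. GCGCATGC, of NRF1, had 5.57% against 2.92% and then 6.17% against 5.06% (1.11 points). AAGATGGCG, of YY1, had 1.24% against 0.588% and then 1.35% against 0.982% (0.37 points, -0.063 to 0.86).

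**Figure D5:**
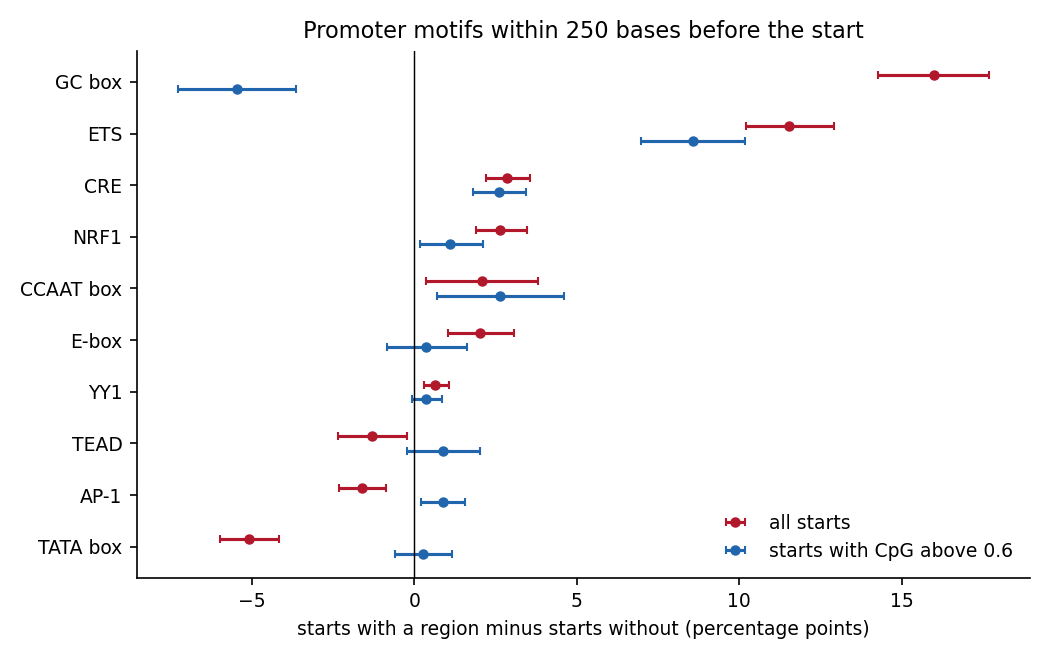
Difference in the share of starts with each motif in the 250 bases before the start, starts with a shared H3K27ac region minus starts without (horizontal axis, percentage points), over all starts and over starts with a CpG ratio above 0.6. Points are differences with 95% Newcombe intervals, and the GC box changes side, from 16.0 to -5.46 points, while the ETS motif stays above 0. The starts without a shared region include starts with another PKM2-KD region.

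Within the 4038 starts with a region, the motifs were set against the other lists, in 40 comparisons with intervals not widened for their number. Starts with a CCAAT box carried H3T11ph more often, at 24.8% against 20.1% in NC (4.66 points, 1.98 to 7.40) and 27.3% against 21.7% in PKM2-KD (5.54 points, 2.78 to 8.36). Starts with a TATA box carried it at 29.8% against 21.3% in NC (8.46 points, 2.71 to 14.9), and at 26.2% against 23.6% in PKM2-KD (2.65 points, -2.84 to 8.90). Starts with TGACGTCA carried NONO of NC less often, at 15% against 23.4% (-8.38 points, -13.1 to -2.29). A CCAAT box also went with more NONO rows, at 8.40% against 5.50% in NONO-KD (2.90 points, 1.27 to 4.65). In NC that NONO difference was 2.45 points (-0.25 to 5.22). CCGGAAG went with fewer rows of H3T11ph NC (-3.23 points, -6.17 to -0.064) and NONO-KD (-2.56 points, -4.09 to -0.72). For H3T11ph PKM2-KD and NONO NC it gave -1.835 points (-4.94 to 1.47) and -2.92 points (-5.95 to 0.32). The GC box went with more rows of NONO NC (2.85 points, 0.063 to 5.54) and NONO-KD (1.87 points, 0.24 to 3.36). GGAATG went with more rows of H3T11ph PKM2-KD (4.72 points, 0.14 to 9.73). The comparisons not given here had intervals that include 0.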

How the data were processed

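MDA-MB-231 CUT&Tag peak lists in narrowPeak form were used, 1 per library and 6 in all, grouped by their titles. Per the labels, the authors' processing notes name hg38 and FastQC 0.11.9, cutadapt 1.18, SAMtools 1.3.1, MACS2 2.1.1.20160309 and DESeq2. The aligner, duplicate handling and control are not given in the sources used here. In each deposited list the authors give a score, a fold (a ratio of summit over background) and −log10 p and q values, with the summit position.

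The members and gene lists were chosen with earlier results of these data known. Summit heights in whole fragments were recovered from fold and −log10 p, and matched within 0.002 for 100% of PKM2-KD and 99.958% of NC rows tried. NC pileups had first been scaled by 0.521. Where several NC rows overlapped a region, the strongest was used. Protein-coding genes (19126) were from RefSeq, GRCh38.p14, and 15101 had a start and promoter sequence in the table used. Shares have Wilson and differences Newcombe intervals (95%), which cover counting error only, and neighbouring regions and genes are not independent. Depth was inferred from the lists, since they hold no read totals. Overlap, height recovery and intervals were tested on simulated data. Python 3.11.15, pandas 2.3.3 and scipy 1.17.1 were used.

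Named genes were the study's KAT5, PKM and 9 genes, the 2 highest by PKM2-KD fold in each list, the 5 highest regions by fold in each H3K27ac list, by H3T11ph fold (NC only, PKM2-KD only, both) and by NONO NC fold, and the 5 largest rises and falls of percentile. NONO lies on chromosome X and was outside the rule. Some regions that this rule picks are not reported here. Alternatives were a −log10 q of at least 5, 50% overlap, a 200 bp summit window, 2.5 kb from a gene end, NC rows of any width, other NC rows and scales, and other promoter windows. Bands of height, CpG-rich starts and regions that hold the NC summit were added after seeing the data.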

Additional observations from a re-analysis of the deposited data

Results flagged for a closer look

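The rule was limited to chromosomes 1 to 22. On chromosome X, which no comparison above used, 139 H3K27ac regions met the rest of it, or 16.4 per 100 of the 848 protein-coding genes there, a signal in data outside the main measurement. This lay between the values of chromosomes 22 and 19.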

How the results depend on the processing

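The number of regions (4114 to 6146) and of genes (4479 to 6298) kept within 1.5 times the reported counts under every alternative. The NONO NC differences and the H3T11ph NC difference from gene bodies kept their direction and excluded 0 throughout. With a 200 bp summit window, gene ends minus outside genes became -0.69 points for H3T11ph NC, -1.38 for H3T11ph PKM2-KD and -1.26 for NONO-KD, gene ends minus gene bodies became 0.91 for H3T11ph PKM2-KD and 0.45 for NONO-KD, and the H3T11ph NC-only share became 46.96% (interval to 50.3%). For H3T11ph PKM2-KD against outside genes, a −log10 q of at least 5 gave 1.45, 50% overlap 0.69 and 2.5 kb 1.17, all with intervals that include 0. For NONO-KD against outside genes, -0.64 with an interval including 0, a −log10 q of at least 5 gave 0.15 and 2.5 kb gave -1.09.

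Within bands of height from lowest (1) to highest (4), added after seeing the data, H3T11ph NC against outside genes was -0.14 in band 1 and 1.89 in band 2, H3T11ph PKM2-KD was 1.38 in band 2 and 1.68 in band 4, and NONO-KD was -1.93 in band 1, 0.54 in band 3 and 0.075 in band 4. NONO-KD against gene bodies was -0.055 in band 1 and 1.57 in band 3. For H3K27ac PKM2-KD over NC, the difference of medians from gene bodies and from outside genes was 0.162 and 0.136 (log2) with a −log10 q of at least 5, 0.153 and 0.139 with the NC row nearest the summit, 0.138 and 0.129 over regions that hold the NC summit (added after seeing the data), and -0.165 and -0.223 percentile points on the percentile scale.

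Where a region covered the start, TGANTCA gave -0.86 points and GGAATG -0.58. Among CpG-rich starts GC content gave -2.27 points, TATAAA 0.26, GGGCGG -5.46, CACGTG 0.36, AAGATGGCG 0.37, TGANTCA 0.87 and GGAATG 0.88. The causes of these changes were not tested. No paired analysis was possible because there was 1 library for every group.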
